A study of Mus musculus with 36 samples.

Results

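Male C57BL/6J mice whose dams ate a high fat diet (HF) were compared by the diet they received after weaning, and the expression of all genes measured in their livers was examined. The comparison takes in 19 of the 36 mice of the series, namely 10 that went on to the HF diet (HF_HF, with the diet of the dam first) and 9 that went on to a low fat diet (LF), named HF_LF. All 19 were thus exposed to HF before weaning, and the labels give no agent and no altered allele for either group. The other 17 mice, 8 LF_HF and 9 LF_LF, were pups of LF dams and serve here only to show where the response to the same diets differed. The HF diet also held less carbohydrate than the LF diet, so that an effect of more fat and an effect of less carbohydrate cannot be told apart. The study states that livers were taken at 9 weeks of age, and each mouse gave 1 array (Illumina MouseRef-8 v2.0).

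The liver turns surplus carbohydrate into fatty acids, burns or exports the fat it receives, and secretes most plasma proteins, among them the acute phase proteins that rise with inflammatory cytokines such as IL-6. Lipid synthesis is driven by the transcription factors SREBP-1c, which responds to insulin, and ChREBP, which responds to glucose. In rodents, many genes of steroid and drug metabolism also differ between the sexes, under the control of growth hormone pulses that act through STAT5 in hepatocytes. These programmes are described one by one.

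The arrays gave values for 25697 probes, of which 12289 were bright enough to be tested, and these represented 8537 genes. Values are quantile-normalized intensities on a linear scale without background subtraction, so that the fold change of a dim probe is smaller than that of its RNA. The median of all values was 71.5, and a gene near it was close to the background of the array. Each array correlated with the others at a median r of 0.979 to 0.990, and the scores of HF_HF and HF_LF mice on the first principal component, with 27.7% of the variance, did not overlap. The labels give a cage number for every mouse without saying what kind of cage it was. The study states that the males of each cage were divided between the diets at weaning. A number shared by both diets would thus be that of the cage before weaning. The 19 mice came from 6 cages. Of these, 3 (cages 10, 20 and 23) gave mice to both diets, 7 HF_HF and 5 HF_LF. Cage 21 gave only HF_HF mice, and cages 1 and 12 only HF_LF mice. Differences within the 3 shared cages are given below for the main genes. Labels call the tissue liver, and the hepatocyte markers bore this out in every mouse, with a summed intensity of 181216 to 203080 in HF_HF and 181767 to 205060 in HF_LF mice.

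Mice on the HF diet were heavier and longer, whereas their blood glucose was not distinguishable from that of mice on the LF diet. Body weight at 3 weeks, at the start of the post-weaning diets, was 11.6 ± 1.25 g (SD, n = 10) in HF_HF and 10.9 ± 0.870 g (SD, n = 9) in HF_LF mice (exact permutation test, two-sided, p = 0.158, adjusted over the 6 measures p = 0.189). This difference of 0.738 g was 1.5 g without cage 23 (exact p = 0.00932) and -0.0450 g within the 3 shared cages. The weight recorded second ranged from 28.4 to 34.1 g in HF_HF and from 20.4 to 25.8 g in HF_LF mice, so that the groups did not overlap. The mean difference was 6.90 g, with an exact p of 1.08e-05, the smallest that these numbers of mice allow, and an adjusted p of 3.25e-05. Within the 3 shared cages the difference was 5.50 g (exact p = 0.00833). The labels attach this weight to weaning, but it is far above the 3-week weight and no other age is given for it. Body length differed by 4.74 mm, with a mean of 103 ± 1.06 mm (SD, n = 8) in HF_HF and 97.9 ± 2.15 mm (SD, n = 9) in HF_LF mice (exact p = 1.23e-04, adjusted p = 1.85e-04). Glucose was 188 ± 42.8 mg/dl (SD, n = 10) against 193 ± 25.3 mg/dl (SD, n = 9), a difference well inside the spread between mice (exact p = 0.791).

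**Figure D1:**
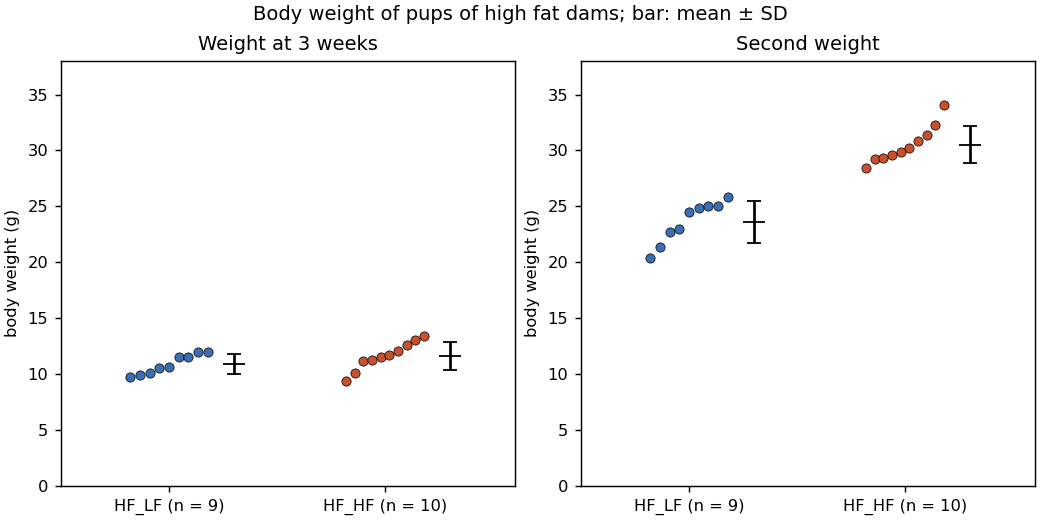
Body weight in g at 3 weeks and at the second weighing, with 1 point per mouse and the mean ± SD of each group. The groups overlap at 3 weeks, and at the second weighing all HF_HF mice are at 28.4 g or more and all HF_LF mice at 25.8 g or less.

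The HF diet changed the level of many genes, most of them by little. At a false discovery rate of 5%, 633 probes rose (5.15% of those tested) and 751 fell (6.11%). Counted by the brightest probe of each gene, 461 genes rose (5.40%) and 547 fell (6.41%), and the median log2 difference over all genes was -0.01. The median change of a called gene was 1.23-fold, 879 of the 1008 called genes changed by less than 1.5-fold, and 35 changed by more than 2-fold, of which 21 rose and 14 fell. In 32 genes (0.375%) every HF_HF mouse was above every HF_LF mouse, and in 50 genes (0.586%) every HF_HF mouse was below. Calls depended on how cages were treated: the 1384 called probes became 890 with cage as a fixed term, 371 with 1 mean per cage and group, 883 without cage 20, 760 without cage 21 and 636 without cage 23. The number of arrays limits the precision.

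The genes that rose most combined acute phase proteins with genes of other kinds. Moxd1, a copper-dependent monooxygenase that is higher in male than female mouse liver, had a lowest, median and highest intensity of 132, 610 and 1310 in HF_HF mice and of 58.0, 64.9 and 72.6 in HF_LF mice. It was thus near background in all 9 HF_LF mice and above it in all 10 HF_HF mice, a log2 difference of 3.06 ± 0.29 (SE, adjusted p = 1.95e-06), and it lay between 2.70 and 3.17 within the 3 shared cages. Aatk, a kinase first described in apoptosing myeloid cells, ran from 766 to 1251 with a median of 981 in HF_HF mice, and from 162 to 559 with a median of 313 in HF_LF mice. The groups did not overlap, and the log2 difference was 1.75 ± 0.17 (adjusted p = 1.95e-06). Dct, an enzyme of melanin synthesis, likewise did not overlap, with 342 to 585 against 76.2 to 242 and a log2 difference of 1.71 ± 0.18 (adjusted p = 4.76e-06). Scara5, a receptor for ferritin, rose by 1.73 ± 0.26 on the log2 scale, with 9 of 10 HF_HF mice above the highest HF_LF mouse. Mt1, a metallothionein that binds zinc and copper, rose by 2.0 ± 0.38 on the log2 scale (adjusted p = 0.00144). Its medians were 14133 and 3105, and in 1 HF_HF mouse it sat at 32949, the top of the intensity scale. Mt2, its near relative, ran from 76.5 to 515 against 69.6 to 108, with a log2 difference of 1.02 ± 0.29 (adjusted p = 0.0221), a call lost without cage 12 or cage 20.

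Among the genes that fell most was Hamp2, the second hepcidin gene of the mouse. Its lowest, median and highest intensities were 572, 1551 and 2991 in HF_HF mice and 4493, 7816 and 12480 in HF_LF mice. No HF_HF mouse reached the lowest HF_LF mouse, and the log2 difference was -2.26 ± 0.28 (adjusted p = 2.58e-05). Hamp, which encodes the hepcidin that governs iron export, stood at a median of 12211 against 11733 and did not pass (log2 difference -0.08 ± 0.12, adjusted p = 0.756). Csad, the enzyme that makes the taurine precursor hypotaurine, had 406, 726 and 961 against 1013, 2110 and 3030. The groups were again separate, with a log2 difference of -1.63 ± 0.21 (adjusted p = 4.55e-05). Cyp3a11, a main drug-metabolizing cytochrome P450 of mouse liver, had 813, 2974 and 3953 against 4205, 6007 and 15015, also without overlap (-1.54 ± 0.27, adjusted p = 8.41e-04). Serpina7, the thyroxine-binding globulin, fell by 1.44 on the log2 scale (SE 0.24, adjusted p = 3.63e-04), and 9 of 10 HF_HF mice were below the lowest HF_LF mouse. Within cage 10 its log2 difference was only -0.03, against -1.38 and -2.18 in cages 20 and 23, and the call was lost with 1 mean per cage and group. Hsd17b6, a hydroxysteroid and retinol dehydrogenase, fell by 1.18 (SE 0.24, adjusted p = 0.00208), with 7 of 10 HF_HF mice below all HF_LF mice.

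**Figure D2:**
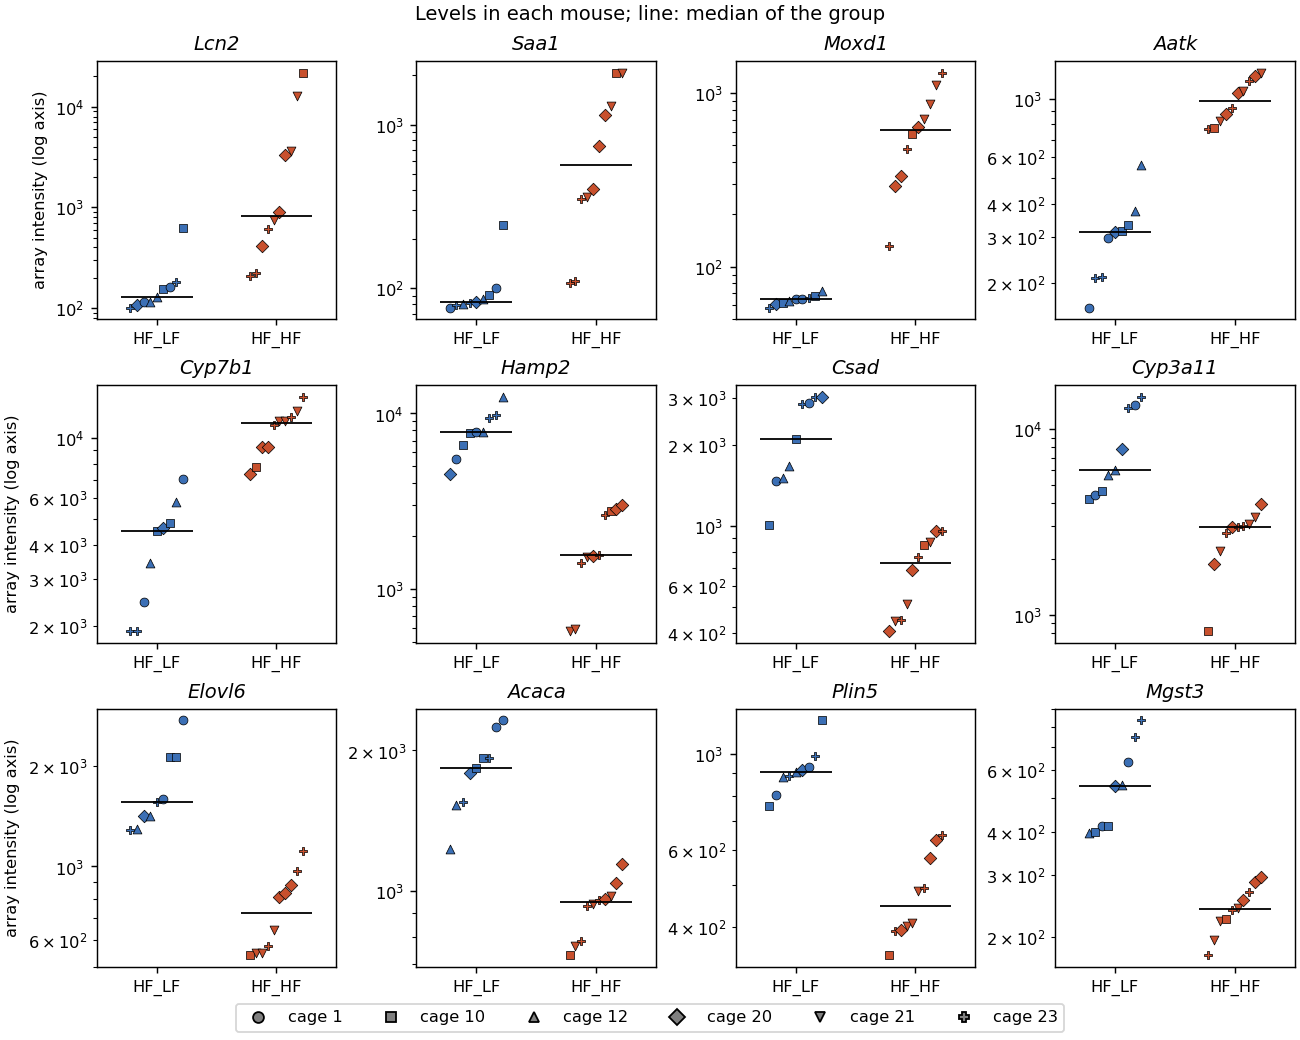
Intensity (log axis) of 12 genes in each mouse, HF_LF in blue and HF_HF in red, with the cage as marker shape and the group median as a line. For Moxd1, Aatk, Cyp7b1, Hamp2, Csad, Cyp3a11, Elovl6, Acaca, Plin5 and Mgst3 the groups do not overlap, while for Lcn2 and Saa1 the HF_HF mice spread widely.

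Nearly as many acute phase genes rose as did not pass, and by amounts that differed strongly from mouse to mouse. Of 25 acute phase genes tested, 12 rose, 0 fell and 13 did not pass, with a median log2 difference of 0.43, beside 5.40% risers and a median of -0.01 over all genes. The study reports acute phase signalling among genes altered by the maternal diet in pups fed HF, another contrast that shares the HF_HF mice. This list is therefore not independent evidence of the direction. Without cage 21, or with 1 mean per cage and group, 7 of the 25 rose. Lcn2, lipocalin 2, which binds bacterial siderophores, had a lowest, median and highest intensity of 207, 822 and 21738 in HF_HF mice and of 101, 128 and 620 in HF_LF mice. Among the HF_HF mice 6 of the 10 were above all HF_LF mice, the others overlapped with them, and the log2 difference was 3.16 ± 0.71 (adjusted p = 0.00533). Within cages 10, 20 and 23 it was 6.13, 3.33 and 1.17. Saa1, a serum amyloid A protein of high density lipoprotein, had 108, 571 and 2073 against 76.2, 82.7 and 245. It rose by 2.55 ± 0.47 (adjusted p = 0.00119), with 8 of 10 HF_HF mice above every HF_LF mouse. The same mice were high in several of these genes: the 4 HF_HF mice with the highest Lcn2 (3324 to 21738) also had the 4 highest values of Saa1 (1142 to 2073) and of Orm2 (3689 to 19524).

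Saa1 and Saa2 lie side by side and their promoters are almost the same sequence, which is shown because the genes moved together. In the 250 bases before each start (RefSeq, GRCm38.p6), Saa1 on the minus strand at chr7:46742981-46743230 and Saa2 on the plus strand at chr7:46751583-46751832, a global alignment paired 238 identical bases in 251 columns (94.8%). Capitals mark the longest run shared without a break, 65 bases.
Saa1: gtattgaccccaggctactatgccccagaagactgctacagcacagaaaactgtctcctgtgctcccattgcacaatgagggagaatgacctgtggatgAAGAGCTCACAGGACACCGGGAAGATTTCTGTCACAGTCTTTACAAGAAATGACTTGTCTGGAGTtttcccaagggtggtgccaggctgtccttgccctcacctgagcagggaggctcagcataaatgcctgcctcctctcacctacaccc
Saa2: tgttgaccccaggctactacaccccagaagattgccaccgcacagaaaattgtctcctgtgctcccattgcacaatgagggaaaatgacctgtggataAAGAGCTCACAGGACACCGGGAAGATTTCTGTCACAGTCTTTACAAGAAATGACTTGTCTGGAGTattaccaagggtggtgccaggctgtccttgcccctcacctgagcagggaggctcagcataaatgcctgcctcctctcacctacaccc
Saa2 rose by 2.22 ± 0.46 (adjusted p = 0.00311), from a median of 81.4 to 408. Transcripts of the pair are also alike, so that each probe may read some RNA of the other gene.

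Other acute phase genes rose as well. Saa4, a constitutive serum amyloid A protein, rose by 1.41 ± 0.15 (adjusted p = 6.62e-06). Orm2, an orosomucoid, rose by 2.11 ± 0.54 (adjusted p = 0.0130), from 524 to 19524 among HF_HF mice, and the call was lost without cage 21. Serpina3n, a protease inhibitor, had a lowest, median and highest intensity of 6471, 10212 and 18419 against 3778, 4855 and 9117, and rose by 1.04 ± 0.19 (adjusted p = 0.00115). Hp, the haemoglobin scavenger haptoglobin, rose by 0.43 ± 0.08 (adjusted p = 9.27e-04). Stat3, the transcription factor that carries the IL-6 signal, rose by 0.59 ± 0.11 (adjusted p = 0.00166). Cebpb, another factor of this response, rose by 0.38 ± 0.09 (adjusted p = 0.0104), a call lost without cage 10 or cage 23. By contrast, Fga and Fgb, which encode fibrinogen chains, stayed near 0 (0.02 ± 0.05 and 0.08 ± 0.09, neither passing), as did Crp (0.11 ± 0.09). Neutrophil markers, which could bring Lcn2 of their own, did not pass in any of 4 genes tested. All 4 were above 0, with a median log2 difference of 0.27, against -0.01 over all genes. Their summed intensity was 335 to 1282 in HF_HF mice and 288 to 531 in HF_LF mice, and S100a8 within cages 10, 20 and 23 differed by 2.84, 1.41 and -0.42 (log2). Their part in the rise of Lcn2 was not tested. Without replicate 1 of both groups, the mice of cage 10 with the highest Lcn2 of their groups, 12 acute phase genes rose, the same number as with them.

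In complement and coagulation genes the rises were smaller. Of 30 tested, 11 rose and 1 fell, with a median log2 difference of 0.16, beside 5.40% and 6.41% of all genes. C4b, a complement component of the classical pathway, was separate between the groups, with 4286, 5347 and 7098 against 3024, 3762 and 4265 (0.54 ± 0.10, adjusted p = 8.19e-04). Hc, the fifth component, rose by 0.51 ± 0.09 (adjusted p = 8.29e-04), and C6, C8a, C8b and C9 of the membrane attack complex rose by 0.36 to 0.47. Mbl2, a mannose-binding lectin, fell by 0.38 (SE 0.09, adjusted p = 0.00972). The count is sensitive to the mice included: 7 genes rose without cage 12 or without HF_LF replicate 8, 6 without cage 23, 3 without cage 21, and 2 with 1 mean per cage and group. Of 17 endoplasmic reticulum stress genes, 4 rose and 0 fell, beside the same shares. Among these were Xbp1, the transcription factor of the unfolded protein response (0.39 ± 0.09, adjusted p = 0.00830), and the chaperones Dnajc3 (0.35 ± 0.10) and Pdia4 (0.32 ± 0.09). Without cage 20 only Dnajc3 of the 4 still rose, and without cage 23 only Xbp1. Without cage 10 or without HF_LF replicate 5, 2 of the 4 did. With cage as a fixed term all 4 lost their calls. Xbp1, Dnajc3, Pdia4 and Ddit3 then had adjusted p of 0.0553, 0.0862, 0.0929 and 0.216 (limma). A second probe of Ddit3 was at 0.01 ± 0.08. The chaperone Hspa5 did not pass (-0.08 ± 0.09, adjusted p = 0.679), but its probe read 68.8 to 104 against 74.3 to 116, near background.

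**Figure D3:**
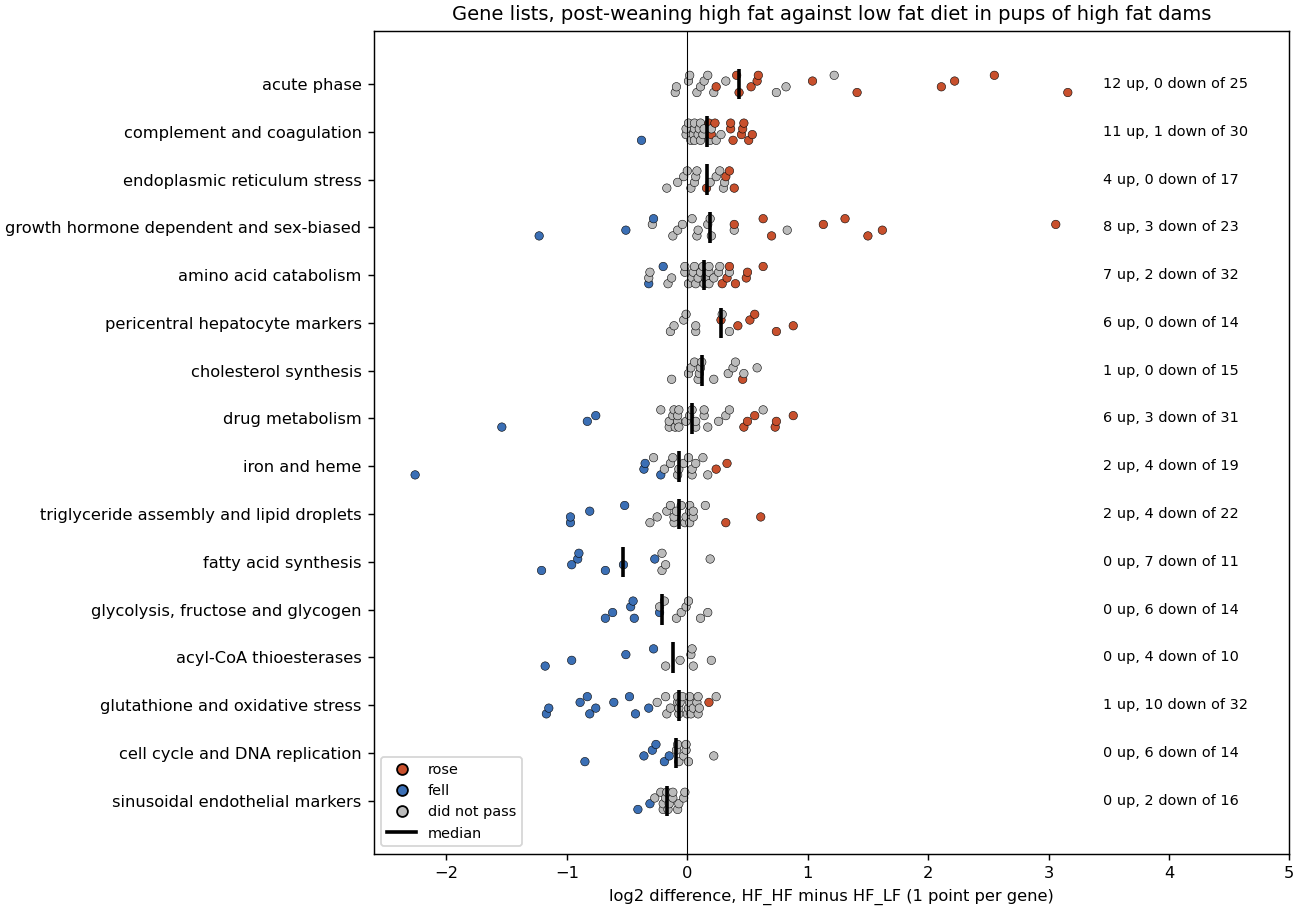
Log2 difference of HF_HF against HF_LF mice for every tested member of 16 gene lists, with 1 point per gene (red rose, blue fell, grey did not pass) and a bar at the median of each list. The acute phase list has its median at 0.43 with 12 genes that rose, and the fatty acid synthesis list at -0.53 with 7 that fell.

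Genes of fatty acid synthesis fell. Of 11 tested, 7 fell and 0 rose, with a median log2 difference of -0.53, beside 6.41% of all genes that fell. Acly makes cytosolic acetyl-CoA, Acaca carboxylates it, and Me1 supplies NADPH. Acaca had a lowest, median and highest intensity of 731, 949 and 1146 in HF_HF mice against 1232, 1833 and 2319 in HF_LF mice, so that no values overlapped (-0.96 ± 0.10, adjusted p = 6.62e-06). In cages 10, 20 and 23 its difference was -1.36, -0.77 and -0.96. Elovl6, which elongates palmitate, had 541, 726 and 1111 against 1289, 1566 and 2752, also without overlap (-1.21 ± 0.16, adjusted p = 3.75e-05). Acly fell by 0.91 (SE 0.14, adjusted p = 1.90e-04) and Me1 by 0.90 (SE 0.15, adjusted p = 4.87e-04), with 9 of 10 HF_HF mice below all HF_LF mice in both. Scd1, the desaturase that makes oleate, fell by 0.53 (SE 0.14, adjusted p = 0.0162), and Fasn, the synthase itself, by 0.27 (SE 0.08, adjusted p = 0.0238). The Fasn probe read only 65.0 to 97.9 against 74.9 to 121, close to background, so its change is understated. Calls of Scd1 and Fasn were lost without cage 1, 10 or 23, and 4 of the 7 genes fell without cage 10 or with cage as a fixed term. Mlxipl, which encodes ChREBP, did not pass (0.19 ± 0.11, adjusted p = 0.303).

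Sterol and insulin control of the Fasn promoter is known to need the factor NF-Y, and the 250 bases before its start are shown with matches to the NF-Y box (CCAAT, either strand) in capitals, of which 2 overlap (RefSeq, GRCm38.p6, minus strand, chr11:120824548-120824797).
Fasn: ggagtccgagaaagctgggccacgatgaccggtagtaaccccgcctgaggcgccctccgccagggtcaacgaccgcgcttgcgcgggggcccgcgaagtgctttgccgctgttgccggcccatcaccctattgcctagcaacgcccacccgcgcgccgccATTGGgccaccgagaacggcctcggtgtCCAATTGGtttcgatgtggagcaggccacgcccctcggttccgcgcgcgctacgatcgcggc
The matches begin 90, 62 and 59 bases before the start. Such a match is common, being present in 33.8% of all 32851 promoter windows and in 37.5% of all genes with a window. Among fatty acid synthesis genes with a window, 3 of 6 that fell and 7 of 10 tested held it, and it is no sign of binding. The sterol regulatory element core (TCACCCCAC, either strand) was found in 0.555% of all genes with a window and in 0 of the 6 that fell.

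Of 14 genes of glycolysis, fructose and glycogen metabolism, 6 fell, 0 rose and 8 did not pass, with a median of -0.21, beside 6.41% of all genes that fell. Gys2, the liver glycogen synthase, had 276, 427 and 514 against 448, 622 and 898 (-0.62 ± 0.12, adjusted p = 0.00168). Pklr, the liver pyruvate kinase, fell by 0.68 (SE 0.17, adjusted p = 0.0119). Its difference was -1.71 within cage 10 and 0.23 within cage 20, and the call was lost without cage 10. Slc2a2, the glucose transporter GLUT2, fell by 0.45 (SE 0.09, adjusted p = 0.00324), and the fructose enzymes Khk and Tkfc fell by 0.44 and 0.47. With cage as a fixed term 2 of the 6 fell, and Pklr, Slc2a2, Tkfc and Khk lost their calls (adjusted p of 0.186, 0.0843, 0.140 and 0.101). Calls of Khk and Tkfc were lost without cage 21, and 3 of the 6 genes fell without cage 10 or cage 21. In gluconeogenesis 1 of 10 genes passed, near the share of all genes: G6pc, glucose-6-phosphatase, fell by 0.69 (SE 0.21, adjusted p = 0.0400), but the difference was 0.70 within cage 23, and the call was lost without any of 5 of the 6 cages and with cage as a random or fixed term.

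Desaturation and storage of fat showed mixed changes. Among 9 genes of polyunsaturated fatty acid synthesis 3 fell, beside 6.41% of all genes. Elovl5 fell by 0.65 (SE 0.13, adjusted p = 0.00308), Acsl5 by 0.35 (SE 0.10, adjusted p = 0.0212) and Fads1 by 0.28 (SE 0.08, adjusted p = 0.0345, lost when any of several single mice was left out), while Fads2, the other desaturase, did not pass (-0.11 ± 0.13). Without cage 21 or without cage 23, 1 of the 3 fell. Among 22 genes of triglyceride assembly and lipid droplets 4 fell and 2 rose, beside 6.41% and 5.40% of all genes. Plin5, a droplet protein that tethers droplets to mitochondria, had a lowest, median and highest intensity of 345, 447 and 651 against 758, 909 and 1191. The groups did not overlap (-0.97 ± 0.11, adjusted p = 1.26e-05), and within the shared cages the difference was -1.46, -0.81 and -0.91. Plin4 fell by 0.81 (SE 0.19, adjusted p = 0.00621) and Lpin1, a phosphatidate phosphatase, by 0.97 (SE 0.25, adjusted p = 0.0122, lost without cage 21). Plin2, the most general coat protein of liver droplets, did not pass (-0.11 ± 0.10, adjusted p = 0.546). G0s2, an inhibitor of the triglyceride lipase ATGL, rose by 0.61 (SE 0.18, adjusted p = 0.0264), against -0.71 within cage 10, and the call was lost without HF_LF replicate 4 or 5 and without cage 1, 20 or 23.

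Of 20 genes of mitochondrial fatty acid oxidation 0 rose and 3 fell, beside 5.40% and 6.41% of all genes (at that share about 1 riser would be counted among 20), and of 4 genes of ketone body synthesis 0 passed. Ppara, the nuclear receptor of the fasting response, did not pass (0.17 ± 0.08, adjusted p = 0.198), nor did its target Cyp4a14 (-0.58 ± 0.39, adjusted p = 0.398), which ran from 1503 to 5699 against 621 to 11329 and passed without HF_LF replicate 3 (adjusted p = 0.0311). Ppargc1a, a coactivator of mitochondrial genes, fell by 0.43 (SE 0.10, adjusted p = 0.00937), a call lost without cage 23. The falls of Acadl (0.29, SE 0.09) and Etfdh (0.20, SE 0.06) had adjusted p of 0.0413 each and were lost when any of several single mice was left out, and a second probe of Acadl was at 0.03 ± 0.15. Without cage 23, 0 genes of the list fell. Acyl-CoA thioesterases, which release free fatty acids, fell in 4 of 10 genes, beside 6.41% of all genes. Acot3 had 102, 161 and 275 against 109, 351 and 827 (-1.18 ± 0.31, adjusted p = 0.0158) and Acot1 was at a median of 1876 against 3621 (-0.96 ± 0.30, adjusted p = 0.0413, lost without any cage but cage 1). Without cage 21, 0 of the 4 fell, without cage 23 1 did and without cage 20 2 did. The Acot genes of this cluster are close copies, and probes may share RNA. Fgf21, a hormone that the liver secretes in fasting, had 116, 166 and 247 against 183, 262 and 634 (-0.73 ± 0.20, adjusted p = 0.0172, lost without cage 20, 21 or 23).

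Of 15 genes of cholesterol synthesis tested 1 rose and 0 fell, with a median of 0.12, which is near the 5.40% of all genes that rose. With cage as a fixed term, or without cage 1, 3 rose. Lss, lanosterol synthase, had a median of 483 (335 to 653) against 351, the lowest HF_LF mouse being at 278, and the groups overlapped (0.46 ± 0.13, adjusted p = 0.0247), a call lost without cage 10, 12, 21 or 23 and without HF_LF replicate 7 or 8. The study discusses cholesterol synthesis from these samples, so this list too is not independent evidence. Sqle (0.58 ± 0.26, adjusted p = 0.153), Msmo1 (0.47 ± 0.21, adjusted p = 0.164) and Hmgcs1 (0.40 ± 0.23, adjusted p = 0.311) did not pass. With cage as a fixed term Sqle (0.84 ± 0.25, adjusted p = 0.0474) and Msmo1 (0.64 ± 0.17, adjusted p = 0.0271) passed, Sqle also without cage 1 and Msmo1 without cage 20 or HF_HF replicate 6. Hmgcs1 was at -0.21 within cage 23. Scarb1, the receptor for high density lipoprotein, rose by 0.31 ± 0.06 (adjusted p = 0.00144). The Lss promoter is shown with its NF-Y box in capitals, since all 13 genes of the list that have a promoter window hold this match, against 37.5% of all genes with a window (RefSeq, GRCm38.p6, plus strand, chr10:76531355-76531604).
Lss: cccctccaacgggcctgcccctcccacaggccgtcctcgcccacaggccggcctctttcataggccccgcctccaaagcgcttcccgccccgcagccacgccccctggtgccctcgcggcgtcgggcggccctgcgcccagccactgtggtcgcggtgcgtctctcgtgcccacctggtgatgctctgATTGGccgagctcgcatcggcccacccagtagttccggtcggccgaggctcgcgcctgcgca

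Genes under growth hormone control and genes that differ between the sexes changed in both directions. Of 23 tested, 8 rose and 3 fell, with a median of 0.19, beside 5.40% and 6.41% of all genes. In 4 the groups did not overlap, 3 of them higher and 1 lower in HF_HF mice, beside 0.375% and 0.586% of all genes. Apart from Moxd1, the clearest was Cyp7b1, the oxysterol hydroxylase of the alternative bile acid pathway, which is higher in males. It had a lowest, median and highest intensity of 7325, 11340 and 14207 in HF_HF against 1915, 4503 and 7029 in HF_LF mice (1.5 ± 0.21, adjusted p = 7.29e-05). Susd4, a complement regulator, had 310, 413 and 534 against 87.5, 185 and 303, again separate (1.31 ± 0.20, adjusted p = 1.93e-04). Selenbp2, a selenium-binding protein, rose by 1.62 ± 0.27 (adjusted p = 4.87e-04), although the difference was 0.04 within cage 10 against 1.70 and 2.97 in cages 20 and 23. Mup20, a major urinary protein, rose by 0.70 ± 0.19 (adjusted p = 0.0189), a call lost without cage 20 or 23. Hsd3b5, another male-biased enzyme, did not pass (0.39 ± 0.21, adjusted p = 0.260), and Elovl3, a fatty acid elongase, fell by 0.51 (SE 0.14, adjusted p = 0.0171, lost without cage 21). Several of these genes have close copies, among them the Mup and Cyp4a12 genes, so that a probe may read more than its own gene. Without cage 20 or cage 23, 5 rather than 8 genes rose.

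Bcl6 and Cish stand at opposite ends of the growth hormone signal. Cish is induced by STAT5 and damps cytokine receptors, and Bcl6 is a repressor that STAT5 lowers in liver. Cish had 196, 273 and 656 in HF_HF mice against 409, 844 and 1296 in HF_LF mice (-1.23 ± 0.23, adjusted p = 0.00144), with 8 of 10 HF_HF mice below every HF_LF mouse. Bcl6 had 323, 1033 and 1728 against 297, 440 and 788 (1.13 ± 0.26, adjusted p = 0.00727), with 8 of 10 above every HF_LF mouse, and the call was lost without cage 20. The single HF_HF mouse with the lowest Bcl6 (323) also had the highest Cish (656). Igf1, the growth factor the liver secretes under growth hormone, rose by 0.29 ± 0.06 (adjusted p = 0.00155), and Igfbp2, one of its binding proteins, fell by 0.72 (SE 0.16, adjusted p = 0.00638). The Bcl6 promoter is shown with matches to the STAT5 core (TTCNNNGAA, which reads the same on both strands) in capitals, at 168, 122 and 88 bases before the start (RefSeq, GRCm38.p6, minus strand, chr16:23981284-23981533).
Bcl6: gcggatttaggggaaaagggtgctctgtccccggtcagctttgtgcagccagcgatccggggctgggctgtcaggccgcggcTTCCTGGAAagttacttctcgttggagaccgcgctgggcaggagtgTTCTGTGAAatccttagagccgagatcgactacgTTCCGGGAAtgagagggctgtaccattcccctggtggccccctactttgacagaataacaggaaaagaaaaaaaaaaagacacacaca
At least 1 such match was present in 7.02% of all promoter windows and in 8.13% of all genes with a window. Among growth hormone dependent genes with a window, 2 of 5 that rose and 3 of 14 tested held one. Bcl6 has 2 windows, and the 1 printed was chosen by its number of matches.

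Drug metabolism changed in both directions, with 6 of 31 genes rising, 3 falling and a median of 0.04, beside 5.40% and 6.41% of all genes. Cyp2c37, an epoxygenase, rose from a median of 3762 to 6683 (0.74 ± 0.11, adjusted p = 2.12e-04), and Cyp1a2 from 2387 to 4144 (0.56 ± 0.13, adjusted p = 0.00606, lost without cage 23). Cyp2c55 fell without overlap, with 54.4 to 71.0 against 74.9 to 177 (-0.76 ± 0.13, adjusted p = 4.75e-04), so its HF_HF values were at background. Ephx1, the microsomal epoxide hydrolase, had 1335, 2516 and 3112 against 2426, 4123 and 6401 (-0.83 ± 0.19, adjusted p = 0.00533). Neither of the receptors that drive these genes passed: Nr1i2 (PXR) was at -0.15 ± 0.10 and Nr1i3 (CAR) at 0.35 ± 0.13 (adjusted p = 0.0839). Nr1i3 passed without HF_LF replicate 8 or 9 and without cage 12, with a lowest adjusted p of 0.0110. Aldh1a1, an aldehyde dehydrogenase that makes retinoic acid, rose by 0.88 ± 0.17 (adjusted p = 0.00187), and among other retinoid enzymes Rdh9 fell by 0.51 (SE 0.11, adjusted p = 0.00411) while Rdh5 rose by 0.42 ± 0.10 (adjusted p = 0.0105, lost without cage 21 or 23).

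Of 32 genes of glutathione and oxidative stress 10 fell and 1 rose, with a median of -0.07, beside 6.41% and 5.40% of all genes. The list holds 18 glutathione transferases, of which 9 fell, 1 rose and 8 did not pass, Gsta3 (-0.04 ± 0.06) and Gstm5 (-0.07 ± 0.09) among them. Mgst3, a microsomal member, had a lowest, median and highest intensity of 177, 240 and 297 against 396, 541 and 834, with no overlap (-1.15 ± 0.13, adjusted p = 1.38e-05). Gstm1 had 1490, 2245 and 3285 against 3215, 4530 and 8586 (-1.17 ± 0.18, adjusted p = 1.90e-04), and Gstm6 fell by 0.81 (SE 0.11, adjusted p = 7.29e-05). Gsta1 fell by 0.89 (SE 0.24, adjusted p = 0.0182) from values that were near background in most mice, and the call was lost without cage 20, 21 or 23. Gsta4 fell by 0.83 (SE 0.20, adjusted p = 0.00902, lost without cage 21). Nfe2l2, the factor NRF2 that induces such genes, fell by 0.32 (SE 0.08, adjusted p = 0.0153). Its target Nqo1 did not pass (-0.08 ± 0.07), but its probe read 63.6 to 97.3 against 74.2 to 94.6, near background, where a change may not show. Without cage 21, and likewise without cage 23, 6 of the 10 fell. Members of the Gstm and Gsta families are close copies that a probe may not tell apart.

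Bile acid, thyroid and iron genes held a few large changes. Slco1a4, an organic anion transporter of the hepatocyte, had 88.2, 113 and 162 against 164, 192 and 284, with no overlap (-0.84 ± 0.11, adjusted p = 5.59e-05). Klb, the coreceptor of FGF21 and of the ileal hormone FGF15, fell by 0.42 (SE 0.09, adjusted p = 0.00286). Dio1, the deiodinase that activates thyroxine, had 952, 1838 and 2483 against 615, 892 and 1444 (0.81 ± 0.17, adjusted p = 0.00256), in the opposite direction to the carrier Serpina7. In the iron and heme list, 4 of 19 genes fell and 2 rose, beside 6.41% and 5.40% of all genes. Apart from Hamp2, Alas1, the first enzyme of heme synthesis, fell by 0.35 (SE 0.09, adjusted p = 0.0189, lost without cage 20 or 23) and Tfr2, a sensor of transferrin, rose by 0.33 ± 0.07 (adjusted p = 0.00543). The 4 that fell became 2 without cage 21 and 1 without cage 20 or cage 23. Fetub, a hepatokine of the fetuin family, rose by 0.49 ± 0.08 (adjusted p = 3.98e-04).

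Of 32 genes of amino acid catabolism 7 rose and 2 fell, with a median of 0.14, beside 5.40% and 6.41% of all genes, so that the falls were near the share of all genes. Dbt, a subunit of the branched-chain keto acid dehydrogenase, had 776, 904 and 979 against 561, 681 and 764, with no overlap (0.40 ± 0.06, adjusted p = 2.71e-04), and Ivd and Pccb, later steps of that pathway, rose by 0.33 and 0.35. Kmo, of tryptophan breakdown, rose by 0.63 ± 0.14 (adjusted p = 0.00649, lost without cage 23), and Abat, which degrades GABA, by 0.50 ± 0.10 (adjusted p = 0.00299, lost without cage 23). Prodh, proline dehydrogenase, rose by 0.49 ± 0.12 (adjusted p = 0.00852, lost without cage 20). Without cage 23, 4 of the 7 rose. In one-carbon metabolism Shmt2, the mitochondrial serine hydroxymethyltransferase, rose by 0.41 ± 0.07 (adjusted p = 7.45e-04), and Cbs, which commits homocysteine to cysteine, fell by 0.38 (SE 0.09, adjusted p = 0.00815, lost without cage 21 or 23). In the urea cycle 0 of 8 genes passed.

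**Figure D4:**
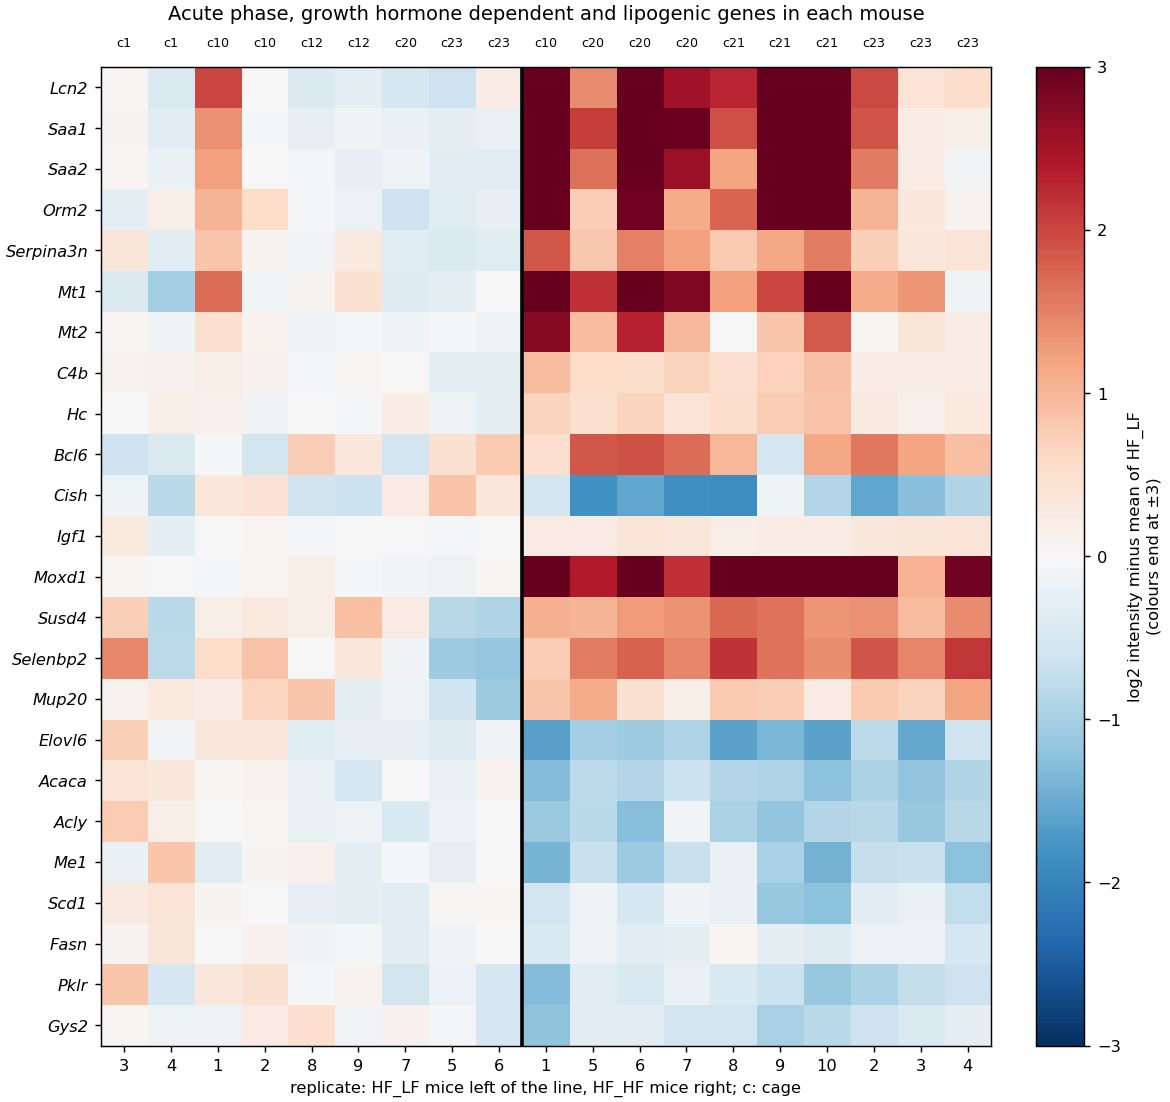
Log2 intensity of 24 genes in the 19 mice, as the difference from the mean of the HF_LF mice, with the cage above each column and colours that end at -3 and 3. Acute phase genes vary between HF_HF mice, whereas Moxd1, Susd4, Elovl6 and Acaca move the same way in all 10.

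In tissue RNA, fewer cells of a type and less RNA per cell cannot be told apart, so markers of cell types are given by their counts. Of 12 hepatocyte, 10 periportal and 12 macrophage markers 0 passed. Of 14 pericentral markers 6 rose and 0 fell, with a median of 0.28, beside 5.40% of all genes that rose. Among the 6 were the metabolic genes Cyp2c37 and Aldh1a1 and the dicarboxylate transporter Slc13a3 (0.52 ± 0.13, lost without cage 21). The defining pericentral genes Glul (-0.03 ± 0.10) and Cyp2e1 (-0.01 ± 0.05) did not pass. The Glul probe read 83.2 to 152 over both groups, near background, and Cyp2e1 read 21361 to 29294, near the top of the scale, where a change may not show. Of 16 sinusoidal endothelial markers 2 fell, beside 6.41% of all genes. All 16 were below 0, with a median of -0.17, against a median of -0.01 over all genes. Their summed intensity was 6477 to 9239 in HF_HF and 8223 to 10431 in HF_LF mice. The 2 were Tek, an angiopoietin receptor (-0.31 ± 0.06, adjusted p = 9.92e-04), and Oit3 (-0.41 ± 0.08, adjusted p = 0.00155). Oit3 was at -0.02 within cage 10. It lost its call with cage as a fixed term (limma, adjusted p = 0.120) and with 1 mean per cage and group (limma, adjusted p = 0.0877). Stab2, a defining scavenger receptor of these cells, did not pass (-0.07 ± 0.06), and without cage 10 there were 4 markers that fell. Of 3 exocrine pancreas genes tested, Cela1, an elastase also made outside the pancreas, rose by 0.81 ± 0.23 (adjusted p = 0.0264, lost without HF_LF replicate 4, 5 or 6 and without cage 20, 21 or 23), and 1 HF_HF mouse had Cela2a at 1730, against 112 at most in HF_LF mice. Of 3 erythroid markers 1 rose and 1 fell. Alas2, the heme synthesis enzyme of red cells, rose by 0.30 ± 0.09 (adjusted p = 0.0325, but 0.200 with cage as a fixed term), and Hba-a1, a globin, fell by 0.48 (SE 0.15, adjusted p = 0.0414), a call lost without cage 10, 20, 21 or 23 and without any of several single mice.

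Of 14 cell cycle genes 6 fell and 0 rose, beside 6.41% and 5.40% of all genes. Rrm2, of nucleotide synthesis, had 64.8, 78.9 and 90.0 against 86.5, 94.5 and 112 (-0.29 ± 0.06, adjusted p = 0.00160). Cdk1, the mitotic kinase, fell by 0.36 (SE 0.08, adjusted p = 0.00445), and Ccnd1, cyclin D1, by 0.85 (SE 0.25, adjusted p = 0.0280, lost without HF_LF replicate 4, 5, 6 or 7 and without cage 20, 21 or 23). The values of Rrm2 and Cdk1 lie near background, and with a stricter filter on dim probes 2 of the genes fell, as they did without cage 23. Of the clock genes, Usp2, a deubiquitinase with a daily rhythm, fell by 0.48 (SE 0.09, adjusted p = 0.00131) and Nfil3 rose by 0.53 ± 0.12 (adjusted p = 0.00664), while Dbp (-0.23 ± 0.09, adjusted p = 0.0889) and Nr1d1 (-0.29 ± 0.12, adjusted p = 0.128) did not pass. Dbp passed with cage as a fixed term and without cage 21 or HF_LF replicate 1, and Nr1d1 without cage 10 or HF_LF replicate 1 or 2. Nfil3 lost its call with cage as a fixed term (limma, adjusted p = 0.0841). Esr1, the estrogen receptor, rose by 0.37 ± 0.08 (adjusted p = 0.00521).

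The same diets were compared in pups of LF dams, with no mice in common. There 170 genes rose (1.99%) and 121 fell (1.42%), from 8 LF_HF and 9 LF_LF mice. The study, from more mice and with another test, reports similar numbers of liver genes changed by the post-weaning diet under both dam diets. A count of calls is no measure of the size of the response. Of the 1384 probes called in pups of HF dams, 1280 (92.5%) had the same sign in pups of LF dams, against 67.6% of all probes. The 253 probes called in both, 0 of them in opposite directions, were 18.3% of the calls in pups of HF dams and 67.3% of those in pups of LF dams. Probes that rose had a median log2 difference of 0.32 in pups of HF dams and 0.18 in pups of LF dams, and probes that fell had -0.28 and -0.16. These probes were chosen by their size in pups of HF dams. For the probes called in pups of LF dams the median absolute differences were 0.36 in those pups and 0.33 in pups of HF dams. The difference of the diet effect between dam diets was tested itself, on all 36 mice, and limma called 0 of 12289 probes (0%), with a lowest adjusted p of 0.170 and 776 probes at an unadjusted p below 0.05. Without cage 1 it called 1 probe, of Cdk19, a kinase of the Mediator complex (adjusted p = 0.0165).

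Moxd1, Hamp2, Csad, Cyp3a11, Elovl6, Plin5 and Mgst3 passed in both sets of pups. In pups of LF dams their log2 differences were 2.51 ± 0.44, -1.33 ± 0.21, -1.39 ± 0.19, -0.97 ± 0.20, -0.87 ± 0.14, -0.66 ± 0.11 and -0.73 ± 0.12. Acute phase genes had a median of 0.21 there and 1 of 25 rose, with Lcn2 at 1.88 ± 0.74 (adjusted p = 0.187) and Saa1 at 1.41 ± 0.56 (adjusted p = 0.198). Cholesterol synthesis had 7 of 15 genes that rose and a median of 0.57, against 1 of 15 and 0.12 in pups of HF dams. For Lss and Hmgcs1 the tests of the difference gave adjusted p of 0.684 and 0.786. Cish and Bcl6 were near 0 in pups of LF dams (0.10 ± 0.39 and 0.07 ± 0.27), and the differences from pups of HF dams, -1.34 ± 0.48 and 1.06 ± 0.41, had adjusted p of 0.640 and 0.657. For Aatk the difference was 1.28 ± 0.32 (adjusted p = 0.367) and for Fetub 0.44 ± 0.10 (adjusted p = 0.324). None of these differences between the dam diets passed.

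**Figure D5:**
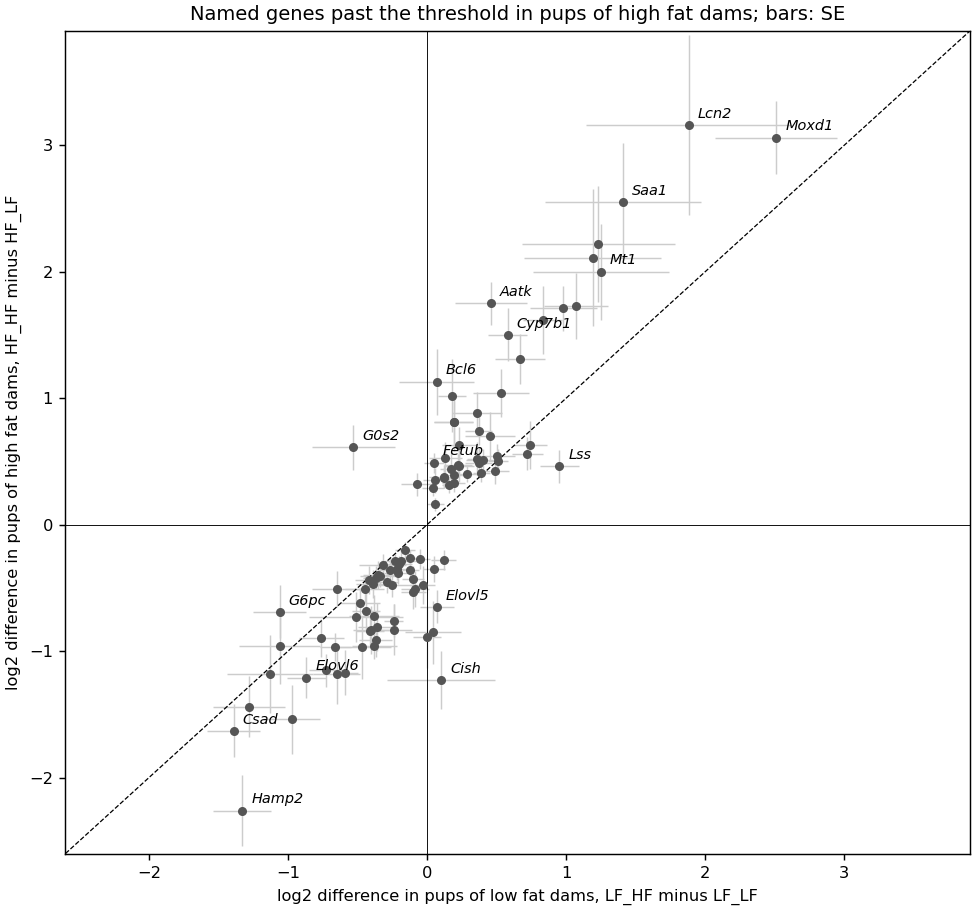
Log2 difference of the HF against the LF post-weaning diet in pups of LF dams (x axis) and of HF dams (y axis) for 102 genes, with SE bars and a dashed line of equality. They are those that passed among 116 genes, which were chosen with their values known from the 173 that the rule for named genes gave. Of these genes, chosen by their change in pups of HF dams, 94 have the same sign in both and 93 are farther from 0 in pups of HF dams.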

How the data were processed

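Total RNA from liver was measured on 36 arrays, 1 per mouse, and the 19 mice of HF dams were compared. The authors deposited linear probe intensities after quantile normalization. BeadStudio is named in the submitters' processing notes, and its version is not given in the sources used here. Normalization forces the arrays to 1 distribution, and values from 45.7 to 32949 keep the background in. Log2 was taken with no further step. Probes were kept when their median over the 36 arrays reached 71.5, the median of all values. This kept 12289 probes (47.8%) and left out 13408. Of 25697 probes, 23978 have 1 gene symbol, 0 have several and 1719 none, and 8 symbols were updated. The brightest probe stood for a gene.

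HF_HF and HF_LF were compared with limma 3.58.1 in R 4.3.3 (lmFit, eBayes with trend, two-sided, without covariates, Benjamini-Hochberg over the kept probes at 5%), and the differences are given ± SE. The difference of the diet effect between dam diets was an interaction term over all 4 groups. Body measures were compared by exact permutation over mice, adjusted over 6 measures. Cage was tried as a random block (statmod 1.5.0, correlation within a cage 0.0504), as a fixed term and as 1 mean per cage and group. Other alternatives were no filter, a stricter filter, no trend, background subtraction, array weights, a Welch test per probe, and leaving out each mouse or cage. No set test was run.

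Named genes are, among called genes, those with the 10 largest rises and those with the 10 largest falls, up to 4 called members of each of 49 lists, and key members. Alternatives were followed gene by gene in 116 of these, chosen with their values known, which hold most but not all genes named. Other genes named were chosen after their values were seen. The comparison, the lists and the motifs were chosen with earlier results of these data known. The fit was tested on simulated data for HF_HF against HF_LF, with 200 of 12289 probes changed in each of 10 runs. It recovered 60.2% of those changed 1.2-fold, 95.8% of those changed 1.5-fold and 100.0% of those changed 2-fold or 3-fold, and 5.4% of its calls were false. The simulated noise was normal and independent between mice, without an effect of cage, so these shares do not measure the errors among the calls in the real mice. Promoter windows and the chromosomes of genes came from RefSeq tables of GRCm38.p6. Columns of 0 unlabelled samples were present. Replicate numbers follow accession order and pair no mice. Figures were drawn with matplotlib 3.10.9 in Python 3.11.15.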

Additional observations from a re-analysis of the deposited data

Results flagged for a closer look

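In 244 groups of values, 13 held 1 mouse far from the others, where chance alone would give about 1 in 20 groups. Of these, 8 belong to replicate 1 of HF_HF or of HF_LF, both of cage 10. In HF_LF replicate 1, Lcn2 was at 620 against 101 to 182 in the other mice of the group, Saa1 at 245 against 76.2 to 101, Saa2 at 208 against 70.6 to 92.2 and Mt2 at 108 against 69.6 to 82.4. In HF_HF replicate 1, Cyp3a11 was at 813 against 1874 to 3953, Cyp1a2 at 2419 against 3279 to 4573, Serpina7 at 622 against 130 to 226 and Cbs at 1428 against 838 to 1075. That mouse also had the highest Lcn2 of all 19 (21738). Without both mice, 1316 probes passed in place of 1384, and the number of acute phase genes that rose was 12 in either case.

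Of the other 5, HF_HF replicate 7 of cage 20 had Acly at 5222 against 2267 to 3156 and Khk at 7816 against 4411 to 5966. HF_LF replicate 4 of cage 1 had Me1 at 1009 against 454 to 635. HF_LF replicate 3, also of cage 1, had Acot1 at 934 against 2137 to 4958, and HF_HF replicate 3 of cage 23 had Mcm6 at 65.2 against 78.3 to 96.0.

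Among the 13408 dim probes that were not tested, 34 passed when no filter was applied, 13 higher and 21 lower in HF_HF mice. Rnase2a, a ribonuclease of the eosinophil family, was at 83.0 to 188 in HF_HF and at 57.1 to 63.8 in HF_LF mice, without overlap (log2 difference 1.04 ± 0.10, adjusted p = 1.55e-06). Slc38a5, an amino acid transporter, was at -0.43 ± 0.07 (adjusted p = 5.56e-04) and Vldlr, a lipoprotein receptor, at -0.41 ± 0.07 (adjusted p = 0.00113).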

How the results depend on the processing

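No paired analysis was possible because the labels give the mice no replicate numbers, and the numbers used here follow accession order. That limit holds for pairing by replicate number only. Cage, which 12 mice of both diets shared, was the block instead. The fit with cage as a fixed term took the diet difference within cages, and only the 3 shared cages inform it. The 1384 called probes became 890 with cage as a fixed term, 371 with 1 mean per cage and group, and 883, 760 and 636 without cages 20, 21 and 23. Those that rose (633) became 363, 193, 380, 353 and 325 under the same settings, and those that fell (751) became 178 with cage means, 407 without cage 21 and 311 without cage 23. Members of gene lists past the threshold (155) became 58 with cage means, 94 without cage 21 and 96 without cage 23. Fewer mice entered the fits without a cage, and fewer values the fit of cage means, while the fit with cage as a fixed term used all the mice. Without 1 mouse the called probes ranged from 978 to 1443, those that rose from 456 to 658, those that fell from 522 to 785, and list members from 126 to 160. The test of the difference between dam diets called 1 probe without cage 1. The difference in 3-week weight was -0.0450 g within the shared cages and 1.5 g without cage 23 (exact p = 0.00932). That in glucose turned to 1.83 mg/dl without cage 10 and 3.79 mg/dl without cage 12, and Hamp stood at a log2 difference of 0.01 without cage 21. The cause of these shifts was not tested.

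Of 102 genes past the threshold among the 116 followed, 101 kept it with cage as a random block, 72 with cage as a fixed term, 52 with cage means, 79 with the Welch test and 93 without a filter. With cage as a fixed term 30 calls were lost. Among them were Pklr, Slc2a2, Tkfc, Khk, G6pc, Scd1, Fasn, Acsl5, Fads1, Lpin1, G0s2, Ppargc1a, Acadl, Etfdh and Cyp4a12b. The others were Inhba, Klb, Dmgdh, Cbs, Alas1, Tfr2, Xbp1, Dnajc3, Pdia4, Ddit3, Nfil3, Rdh16, Oit3, Hba-a1 and Cela1. In 85 the call held without each mouse in turn and in 54 without each cage in turn, and 0 of the 102 changed sign under any setting run. Of 30 other kept probes of these genes, 29 had the same direction and 23 passed. Dim probes near 71.5 limit the folds of Moxd1, Saa1, Fasn and the cell cycle genes.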

Other observations

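The families below were chosen after their values were seen, so their counts are descriptions. Over all genes 5.40% rose and 6.41% fell. Of 34 replication-dependent histone genes, whose messages lack a poly(A) tail in dividing cells, 17 were higher and 3 lower in HF_HF mice past the threshold, with a median log2 difference of 0.26 and a range of -0.33 to 0.81. H1f2, a linker histone, had a lowest, median and highest intensity of 2155, 3148 and 3680 in HF_HF mice against 1317, 1956 and 2450 in HF_LF mice (0.68 ± 0.11, adjusted p = 3.33e-04). H4c8, a histone H4 gene, had 176, 269 and 399 against 126, 151 and 162, so that no HF_HF mouse was below the highest HF_LF mouse (0.81 ± 0.12, adjusted p = 1.20e-04). H2ac7, an H2A gene, went the other way (-0.33 ± 0.08, adjusted p = 0.00852). In pups of LF dams the median of the family was 0.12, with 8 genes that rose and 0 that fell, beside 1.99% and 1.42% of all genes there. Many histone genes are close copies, so the probes are not independent readings.

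Of 11 tubulin genes 4 fell and 0 rose, with a median of -0.18. Tubb2b, a beta tubulin, fell by 0.95 (SE 0.18, adjusted p = 0.00144), Tubb5 by 0.64, and Tuba1b and Tubb4b by 0.45 each. Of the 4 genes of the Nat8 family, which encode acetyltransferases of liver and kidney, 3 rose: Nat8 by 0.96 ± 0.16, Nat8f2 by 0.68 and Nat8f4 by 0.61, while Nat8f1 was at -0.07. Of 15 zinc transporters 3 fell and 1 rose, with a median of 0.00, beside 6.41% and 5.40% of all genes. Slc39a4, which brings zinc into cells, fell by 0.80, Slc39a6 by 0.30 and Slc39a8 by 0.24, and Slc30a5 rose by 0.35. These stood beside the rise of Mt1, the zinc-binding metallothionein, with which a link was not tested.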
